A study of Homo sapiens with 8 samples.

Results

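The genes described here are the 54 replication-dependent histone genes listed for the clusters of chromosome 6p22, taken by name from a RefSeq gene table of GRCh38.p14 that held 19974 protein-coding genes on chromosomes 1 to 22 and X. They comprised 6 H1, 12 H2A, 15 H2B, 10 H3 and 11 H4 genes. A gene was called in a library when any peak of its list overlapped the gene or the 1 kb on either side. Accessible chromatin was mapped with ATAC-seq, an assay that uses Tn5 transposase to cut and tag open DNA. All 8 libraries came from mitotic hTERT RPE-1 cells, a telomerase-immortalised human retinal pigment epithelial line, of genotype Plk1-/- EGFP-Plk1as. These cells lack the endogenous mitotic kinase Plk1 and carry a tagged, analog-sensitive form of it. Every culture was arrested in mitosis for 16 h with 5 µM STLC, a kinesin-5 inhibitor, and the mitotic cells were shaken off. They were then held in STLC for 2 h with 0.5% DMSO (4 libraries) or with 10 µM 3MB-PP1, which inhibits Plk1as (4 libraries). The question was whether accessibility of these genes on mitotic chromosomes differed when Plk1 activity was lost. The submitters describe the libraries of a group as biological replicates of this line without naming separate cultures, so p-values measure the spread between these libraries, which may be technical. Each library pools many cells, and fewer cells with open DNA at a gene and less open DNA per cell cannot be told apart.

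Replication-dependent histone genes supply the H1 linker and the H2A, H2B, H3 and H4 core proteins that package newly made DNA, and their mRNA is made mainly in S phase. Their mRNAs end in a stem-loop instead of a poly(A) tail, and NPAT gathers the transcription machinery at the clusters in histone locus bodies. Many H2A and H2B genes stand head to head and share the short DNA between their starts as a common promoter. H1-6, H2AC1 and H2BC1 encode testis forms. Several genes encode the same or nearly the same protein. How reads matching more than 1 copy were handled is not given in the sources used here. Values within coding sequence, and within any other sequence that copies share, are therefore uncertain, and so are missing calls there.

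The promoters show what sets the classes apart in sequence. They are taken from RefSeq (GRCh38.p14), which gave a start for 49 of the 54 genes. Within the 250 bases before the start, 5 short motifs were searched on both strands, overlaps allowed: TATAAA (the TATA box), CCAAT (bound by NF-Y), ATTTGCAT (the octamer bound by POU2F1), AAACACA (the H1 box) and GGTCC (part of the H4 element bound by HINFP). Capitals mark these motifs below. For H2B, H1 and H4, a gene called in all 8 lists stands before a gene called in none, and H3C3 is shown because its mean covered length in bp fell most of the 54.
H2BC11 (chr6:27132796-27133045, minus strand, called in 8 lists): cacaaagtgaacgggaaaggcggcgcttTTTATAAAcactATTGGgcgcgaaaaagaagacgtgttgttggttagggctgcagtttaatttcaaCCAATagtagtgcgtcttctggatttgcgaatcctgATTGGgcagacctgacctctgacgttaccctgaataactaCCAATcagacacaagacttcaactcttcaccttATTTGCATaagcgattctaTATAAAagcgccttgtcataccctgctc
H2BC6 (chr6:26183511-26183760, plus strand, called in 0 lists): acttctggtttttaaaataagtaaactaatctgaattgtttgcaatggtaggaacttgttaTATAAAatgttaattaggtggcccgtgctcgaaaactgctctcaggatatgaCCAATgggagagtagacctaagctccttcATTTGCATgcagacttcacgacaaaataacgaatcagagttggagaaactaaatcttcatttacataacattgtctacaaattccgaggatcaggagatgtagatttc
H1-4 (chr6:26156079-26156328, plus strand, called in 8 lists): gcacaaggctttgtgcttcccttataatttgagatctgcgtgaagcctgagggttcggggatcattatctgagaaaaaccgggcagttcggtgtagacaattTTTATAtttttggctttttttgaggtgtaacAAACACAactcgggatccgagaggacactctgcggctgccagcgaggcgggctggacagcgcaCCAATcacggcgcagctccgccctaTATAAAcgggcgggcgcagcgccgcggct
H1-1 (chr6:26017788-26018037, minus strand, called in 0 lists): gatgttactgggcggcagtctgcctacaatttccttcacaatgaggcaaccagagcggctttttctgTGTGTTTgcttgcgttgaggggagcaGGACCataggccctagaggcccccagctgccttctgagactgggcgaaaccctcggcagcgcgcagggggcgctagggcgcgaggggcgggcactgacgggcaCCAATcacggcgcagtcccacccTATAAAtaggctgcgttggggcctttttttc
H4C8 (chr6:26285535-26285784, minus strand, called in 8 lists): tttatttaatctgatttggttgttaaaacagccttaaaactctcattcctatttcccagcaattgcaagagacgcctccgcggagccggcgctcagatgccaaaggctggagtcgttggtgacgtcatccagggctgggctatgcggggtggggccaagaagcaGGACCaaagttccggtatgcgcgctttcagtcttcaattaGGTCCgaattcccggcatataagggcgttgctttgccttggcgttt
H4C6 (chr6:26240143-26240392, plus strand, called in 0 lists): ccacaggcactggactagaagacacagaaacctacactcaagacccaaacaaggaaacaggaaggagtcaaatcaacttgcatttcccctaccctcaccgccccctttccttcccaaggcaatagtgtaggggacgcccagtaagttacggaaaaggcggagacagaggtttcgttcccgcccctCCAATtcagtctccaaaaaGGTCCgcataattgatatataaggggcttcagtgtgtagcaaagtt
H3C3 (chr6:26045134-26045383, plus strand, called in 8 lists): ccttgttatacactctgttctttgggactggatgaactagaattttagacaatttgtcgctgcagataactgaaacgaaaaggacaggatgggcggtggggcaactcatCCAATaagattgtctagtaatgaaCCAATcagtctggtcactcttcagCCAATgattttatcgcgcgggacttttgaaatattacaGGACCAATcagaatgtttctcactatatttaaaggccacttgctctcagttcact

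The classes carried different motifs. ATTTGCAT was found in 12 of 15 H2B and 9 of 11 H2A promoters, many of which are the same shared DNA, and in 1.67% of 15812 protein-coding promoters of the same length. On the coding strand of H2B genes it began 45 to 49 bases before the start in 6 promoters, among them H2BC11, and 104 to 123 bases before it in 5, among them H2BC6. AAACACA was found in 6 of 6 H1 promoters and in 3.73% of all promoters. In 5 of the 6 it lay on the coding strand and began 105 to 119 bases before the start, and in H1-1 it lay on the opposite strand. GGTCC is common, with a match in 45.5% of all promoters, but its place was narrow in H4 genes. In 9 of 9 H4 promoters it began 44 to 47 bases before the start on the coding strand, as in 0.626% of all promoters and in 0 of the 40 other histone promoters. CCAAT was found in every H1, H2A, H2B and H3 promoter with a sequence, in 3 of 9 H4 promoters and in 34.4% of all promoters. TATAAA was found in 32 of 49 histone promoters and in 9.36% of all promoters, on either strand and at any place. In H2BC4 and H2BC17 the only match lay on the opposite strand and began 220 and 214 bases before the start. The 32 are therefore not a count of TATA boxes at a set place.

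**Figure D1:**
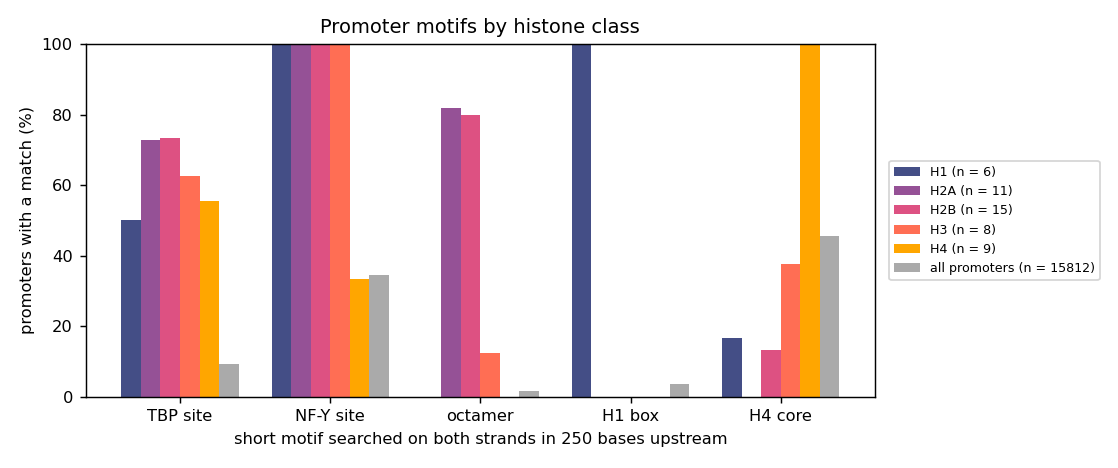
Bars give the share (%) of promoters with a match to each short motif in the 250 bases upstream, for the 5 histone classes and for all protein-coding promoters, with the number of promoters in the legend. TBP site, NF-Y site, octamer, H1 box and H4 core are the 5 motifs in the order given in the text, and the octamer stands at 80% in H2B and 81.8% in H2A against 1.67% of all promoters.

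Called and uncalled genes both carried these motifs. CCAAT was in 27 of 31 promoters of genes called in all 8 lists and in 6 of 7 promoters of genes called in none. The octamer was in 14 of 31 and in 2 of 7, and GGTCC in 7 of 31 and in 5 of 7. TATAAA was in 20 of 31 and in 3 of 7, and AAACACA in 3 of 31 and in 2 of 7. The median GC content was 41.2% for genes called in all 8 lists and 47.2% for genes called in none, against 62.0% over all promoters. These groups differ in class make-up, as the uncalled genes were mostly H1 and H4. By class the median GC content was 50.8% in H1 and 47.2% in H4, against 38.6% to 40.4% in H2A, H2B and H3. The part of class in the GC and GGTCC values was not tested. As the printed pairs show, H1-1 and H1-4 both held AAACACA, the NF-Y motif and a TATA box. In H1-4 AAACACA lay on the coding strand, 117 to 111 bases before the start. In H1-1 it lay on the opposite strand, 183 to 177 bases before it. H1-4 was called in all 8 lists and H1-1 in none, and the part of this difference in the calls was not tested.

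Each library was represented by its own peak list, with 151151 to 199791 peaks for DMSO and 171369 to 253723 for 3MB-PP1. Read depth is unknown, so no interval that needs it is given. Libraries numbered 1 and 3 had 0.868% to 0.933% of peaks on chromosome X and those numbered 2 and 4 had 0.595% to 0.694%, in both groups. Differences are therefore also given within odd and within even numbers. Of 8 retinal pigment or simple epithelial marker genes (KRT8, KRT18, MITF, OTX2, RLBP1, BEST1, RPE65, TYRP1), 5 had a peak in all 8 lists and none was without any. Of 5 genes of other cell types (PTPRC, CD3E, PECAM1, GFAP, MYOD1), 3 had a peak in all 8 lists and MYOD1 had none. A peak at a gene does not show that the gene is expressed, so these calls do not identify the cell type.

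Most of the histone genes lay at a called region. Of the 54 genes, 34 (63.0%) were called in all 8 lists, 12 in some and 8 (14.8%) in none, against 78.2% in all 8 and 4.55% in none over all protein-coding genes. Any call at all was made in 46 of the 54, against 95.5% of all protein-coding genes. The histone genes are short, with a median length of 491 bp against 24170.5 bp for all protein-coding genes, so the windows compared differ in length, and the part of length in these shares was not tested. With a window of the same length for every gene, the 300 bases from 250 before to 50 after the start, 61.2% to 65.3% of the 49 histone promoters overlapped a peak in a list, against 60.8% to 67.2% of all promoters. By this window 29 of 49 (59.2%) were called in all 8 lists, against 52.7% of all promoters, and 13 of 49 (26.5%) in none, against 21.2%. In the main run of genes, 31 genes between 26017032 and 26285534, 20 were called in all 8 lists and 5 in none. The 5 genes from 27132316 to 27147562 included 4 called in all 8, and the 16 genes from 27807479 to 27893891 included 10. The testis pair H2AC1 and H2BC1, which stands apart at 25726063 to 25727345, was not called in all lists.

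The 8 genes called in none were the linker genes H1-1 and H1-6 (the testis linker), H2BC6 and H2BC9, H3C12, and H4C6, H4C9 and H4C12. No H2A gene was among them. H2AC1 was called in 2 lists and H2BC1 in 3, each through peaks with no -log10 q (a peak's significance within its own list, after correction) of 5. A gene without a call is one whose window held no peak past the list's threshold, and says nothing of weaker signal.

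**Figure D2:**
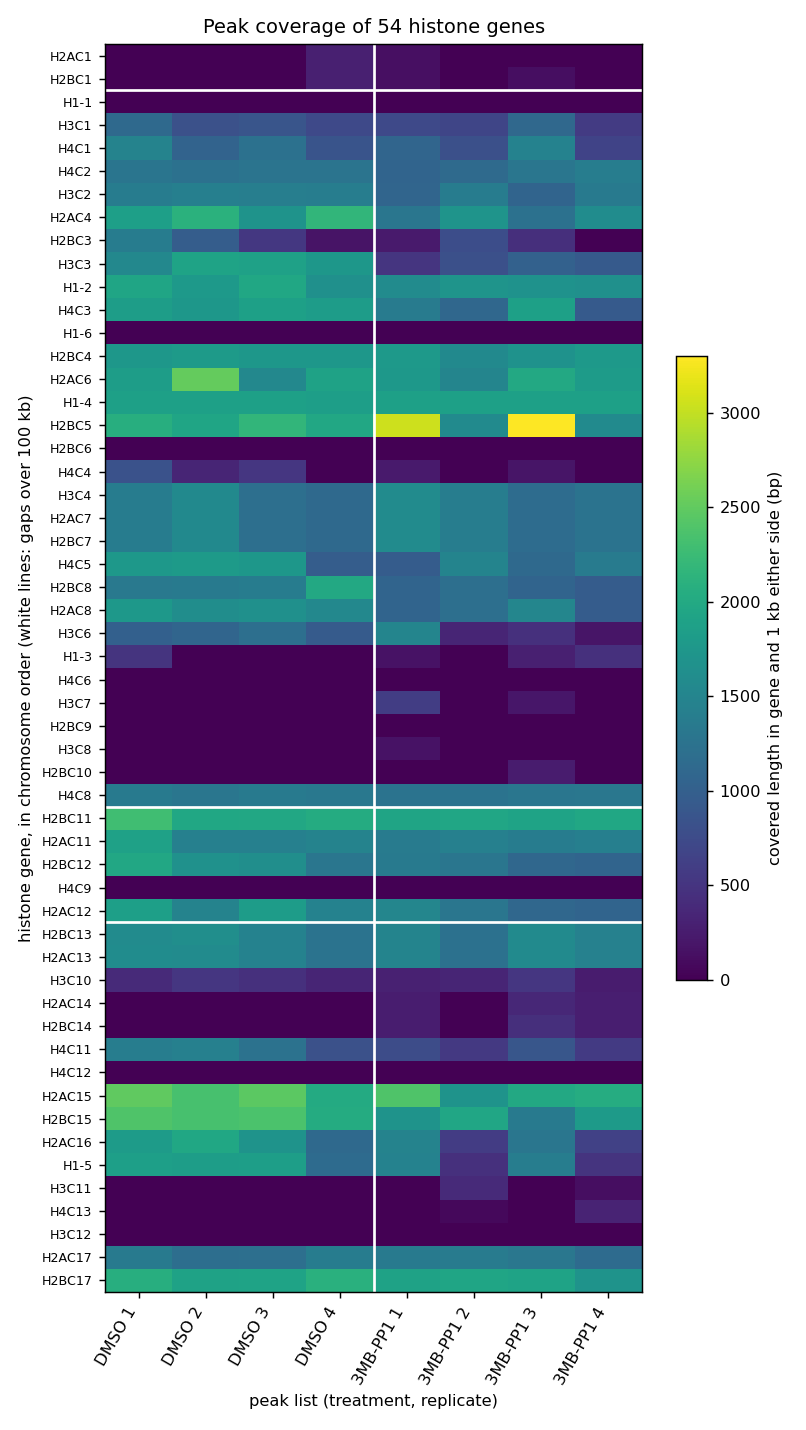
Colour gives the bp covered by peaks in each of 54 histone genes and the 1 kb either side (rows, in chromosome order) for each of the 8 peak lists (columns, DMSO left, 3MB-PP1 right). White horizontal lines mark gaps of over 100 kb. Genes called in every list form runs, and from H1-3 to H2BC10 6 neighbouring genes were each called in 4 lists or fewer.

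The calls came from few distinct regions. Peaks of the 8 lists that touched the windows merged into 43 regions, of which 21 were in all 8 lists and 15 in 1 list only. Of the 21 regions, 13 touched more than 1 histone gene, so genes such as H2BC11 and H2AC11 have the same peak and are not independent of each other. Peaks here were longer than most of their lists. Their median width in a list was 1257 to 1748 bp with DMSO and 728.5 to 1136 bp with 3MB-PP1, against 355 to 409 bp and 269 to 324 bp for all peaks. Most of all peaks were weak: in DMSO lists 8.17% reached a -log10 q of 5, against 75.4% in the windows. Among regions in all 8 lists, the median summed peak length was 1758.5 bp with DMSO and 1353.25 bp with 3MB-PP1. Genome-wide it was 1064.25 and 829.5 bp over 36624 such regions. Peaks at other promoters were not compared. Many calls lay over a promoter. Of the 31 genes called in all 8 lists that have a promoter sequence, 29 had a peak over the promoter itself in all 8. In H3C1 no list had one, and its call came from the region from 26020826 to 26022321 that it shares with H4C1. In H3C10 6 of 8 lists had one. The share with a promoter peak was not computed for all protein-coding genes called in all 8 lists. Windows around genes of median length 491 bp are short, so the count of 29 is not read as particular to histone genes.

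How strong the peaks were was described by the pileup, the height of the fragment coverage in a peak. Since pileup has no stated scaling between libraries, each gene's highest pileup was ranked within a list among the 15622 protein-coding genes called in all 8 lists, so that every list has the same denominator and 100 is the highest percentile. The 34 histone genes spanned most of the scale, from 9.45 for H4C11 to 88.8 for H2BC11 and H2AC11 as means over 8 lists. Their median was 53.7, against 49.5 for all genes. The highest pileup was taken over windows of unlike length, and the part of length in these ranks was not tested.

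H2A and H2B genes form the dimers of the nucleosome and are mostly paired. H2BC11 (27132316 to 27132795) and H2AC11 (27133043 to 27133535) shared the highest-ranked region, from 27131482 to 27133933. Its percentile was 91.3, 90.2, 88.4 and 84.4 in DMSO replicates 1 to 4 and 90.6, 88.8, 91.4 and 85.0 in 3MB-PP1 replicates 1 to 4, so the groups overlapped. The pair H2AC8 and H2BC8 was the lowest of both classes, with a mean percentile of 24.8. Medians over the genes called in all 8 lists were 70.4 for 9 H2B genes and 56.1 for 10 H2A genes.

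H1 genes encode the linker histones. H1-4 (26156329 to 26157115) and H1-2 (26055740 to 26056470) ranked alike, at 77.1 and 76.0 on average. H1-5 was far lower, at 24.2. In every list H1-5 ranked below both others, at 20.9 to 34 with DMSO and 18.1 to 26.6 with 3MB-PP1. H1-3 was called in 4 lists only, and H1-1 and H1-6 in none.

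H3 and H4 genes encode the tetramer at the nucleosome's core. The highest H3 gene was H3C2, at 58.4, and the lowest was H3C6, at 12.9. The median of the 6 H3 genes called in all 8 lists was 36.2, the lowest of the 5 classes, but the ranges of the classes overlapped. The peaks of H3C4 are those of H2AC7 and H2BC7, since its gene model reaches to the start of H2AC7, and the peak of H3C1 is that of H4C1. Without H3C1 and H3C4 the median of the other 4 was 20.0. H3C2 was kept among them, though it shares a region with H2AC4 and has the same pileup in every list. Medians of other classes hold such sharing too, as between H2BC5 and H1-4. H4C8 (26285126 to 26285534) led the H4 genes at 78.2, with 75.7 to 78.7 in DMSO lists and 75.3 to 82.6 in 3MB-PP1 lists. H4C11 was lowest at 9.45, and the median of the 6 H4 genes called in all 8 lists was 54.5.

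**Figure D3:**
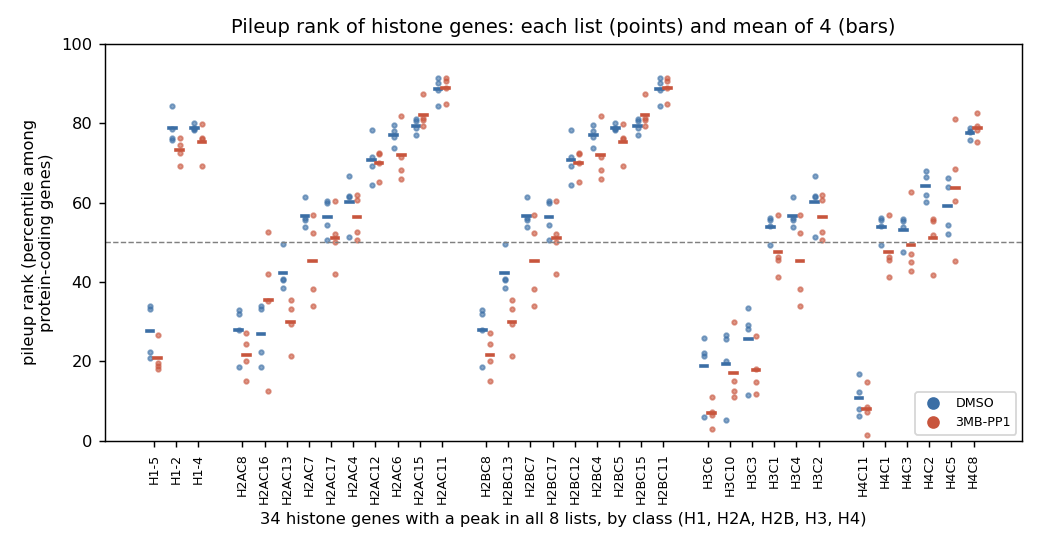
Points give the pileup rank of each gene in each list, as a percentile (y axis, 0 to 100) among 15622 protein-coding genes, for DMSO (blue) and 3MB-PP1 (red), and short bars the means of 4. Genes on the x axis are ordered by class and rank, and pairs that share a peak have the same values. Each class holds genes below and genes above the dashed line at 50.

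The number of histone genes called was compared between treatments. It was 37, 36, 36 and 37 in DMSO replicates 1 to 4 and 43, 37, 42 and 39 in 3MB-PP1 replicates 1 to 4. The mean was 36.5 ± 0.577 (SD, n = 4) in DMSO lists, against 40.25 ± 2.75 (SD, n = 4) in 3MB-PP1 lists, so that the lowest 3MB-PP1 list equalled the highest DMSO lists. The count was higher with 3MB-PP1 in 4 of 4 pairs of the same number. No p is given, because the genes were chosen with results of these data known. The difference of 3.75 genes was 6 in odd-numbered and 1.5 in even-numbered replicates. All protein-coding genes were called at 88.0% ± 1.33 (SD, n = 4) in DMSO lists, against 89.0% ± 2.28 (SD, n = 4) in 3MB-PP1 lists.

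The additional calls were weak peaks. The genes called in more 3MB-PP1 than DMSO lists numbered 9 (16.7%, against 8.06% of all protein-coding genes): H2BC1, H1-3, H3C7, H3C8, H2BC10, H2AC14, H2BC14, H3C11 and H4C13. H2AC14 and H2BC14, a head-to-head pair, had calls in 3 of the 3MB-PP1 lists but 0 with DMSO. H2BC14 was covered by 266, 0, 440 and 283 bp in 3MB-PP1 replicates 1 to 4, so replicate 2 was like the DMSO lists. H3C7 was called in 2 and 0, and so were H3C11 and H4C13, whose windows overlap. The genes called in fewer 3MB-PP1 lists were H2BC3 and H4C4 (3.70%, against 5.90%). No histone gene was called in 4 of 4 lists of one group and 0 of 4 of the other, as were 0.015% (DMSO only) and 0.0801% (3MB-PP1 only) of all genes.

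When peaks were limited to a -log10 q of 5 or more, the order of the groups turned. Then 34, 31, 34 and 26 histone genes were called in DMSO replicates 1 to 4 and 30, 25, 25 and 18 in 3MB-PP1 replicates 1 to 4. The means were 31.25 ± 3.77 (SD, n = 4) and 24.5 ± 4.93 (SD, n = 4), lower with 3MB-PP1 in 4 of 4 same-numbered pairs, by 6.5 genes in odd and 7 in even numbers. At this level 16 of the 54 genes (29.6%, against 32.1% of all genes) were called in all 8 lists, including H1-2, H1-4, H2BC11, H4C8 and H3C2. Of the 12 genes called in some lists, 11 had no such peak, and the exception was H2BC3, in 3 DMSO lists. Over all peaks of a list, the share at this level was 8.17% ± 2.72 (SD, n = 4) in DMSO lists, against 4.65% ± 0.759 (SD, n = 4) in 3MB-PP1 lists. The part of that shift in the histone gene counts was not tested. The share of all protein-coding genes called per list at this level is not given here. The turn is therefore not read as particular to histone genes. Over the promoters alone, 30 to 32 of 49 were called in every list of either group, a mean difference of 0.

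**Figure D4:**
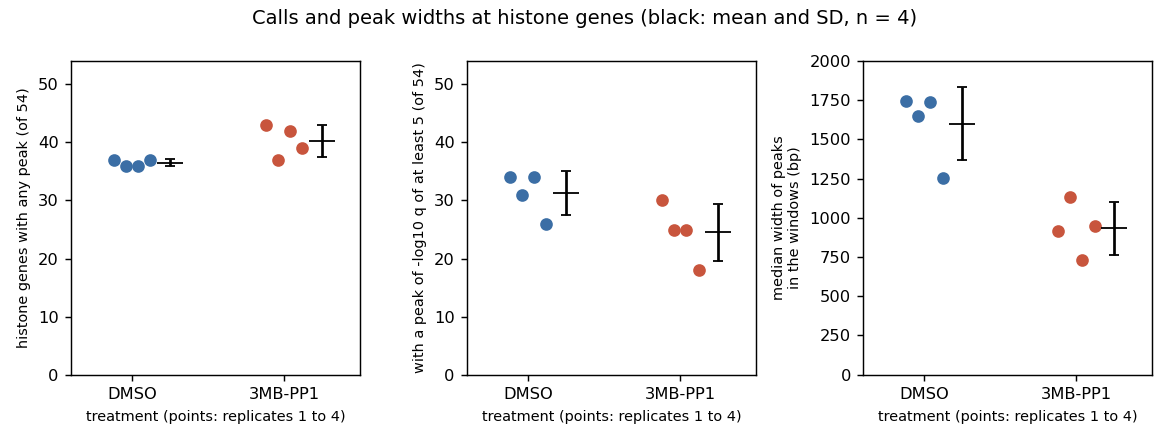
Points give each list's number of histone genes with any peak (left), with a peak of -log10 q of at least 5 (middle), both of 54, and the median width in bp of peaks in the windows (right), for DMSO (blue) and 3MB-PP1 (red). Black marks give mean and SD (n = 4). The left panel is higher with 3MB-PP1 and the other panels lower, and only widths do not overlap between groups.

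Peaks at the histone genes were narrower with 3MB-PP1, as they were across the genome. The median width in a list was 1599.5 ± 233 bp (SD, n = 4) in DMSO lists, against 933 ± 167 bp (SD, n = 4) in 3MB-PP1 lists, and the groups did not overlap. The difference was -921 bp in odd and -411.5 bp in even numbers. The windows held 23 to 27 peaks per DMSO list and 27 to 40 per 3MB-PP1 list, and the part of these additional peaks in the difference was not tested. In the 21 regions found in all 8 lists, the summed peak length was lower on average with 3MB-PP1 in 20, against 80.7% of 36624 such regions genome-wide. The groups did not overlap in 3 of the 21, all lower, against 10.9% genome-wide, and none was higher (0.377%).

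Covered length per gene was tested with limma on log2 bp, over the 15622 genes called in all 8 lists, with Benjamini-Hochberg adjustment over all of them. None of the 34 histone genes passed an adjusted p of 0.05, and none of the 15622 genes did (0% lower, 0% higher). At an unadjusted p of 0.05 or less, 11 of the 34 (32.4%) were lower, in 8 regions, against 11.6% of all genes. Windows of unlike length are compared here too, and the part of length in these comparisons of covered length was not tested. The median difference was -0.21 on the log2 scale over the 34 and -0.16 over all genes. With the gene alone as window it was -0.0099, against -0.13 over all genes. In that window 9 of the 32 histone genes fitted were wholly covered in all 8 lists, against 0.192% of all genes. Those 9 could show no difference there, and their part in the median was not tested. The median was -0.0784, against -0.025 over all genes, after each list was centred on its median gene. With falls of 1 on the log2 scale added to 200 genes in simulated data of 15622 genes, this test recovered 29%, against 0% of falls of 0.5 and 80% of falls of 2. Noise was drawn independently for each gene and list, and no other gene was shifted. These shares need not hold for the 34 histone genes. The groups did not overlap in 4 of the 34 genes, H3C3, H2AC8, H2BC8 and H2BC15, all lower (11.8%, against 7.17% of all genes), and none was higher (1.08%).

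H3C3 (26045384 to 26045869), which encodes the replication-dependent form of H3, had the largest fall in mean covered length. Peaks covered 1540, 1915, 1893 and 1746 bp of its window in DMSO replicates 1 to 4 and 505, 801, 1026 and 937 bp in 3MB-PP1 replicates 1 to 4. Every 3MB-PP1 list lay below every DMSO list. The difference was -1.16 ± 0.23 (log2, SE; limma adjusted p = 0.20), and it was -0.17 with the gene alone as window. The region holding it, from 26043329 to 26046298, reached H2BC3 in some lists. H2BC3 was covered by 1385, 975, 538 and 176 bp with DMSO and by 240, 779, 442 and 0 bp with 3MB-PP1, and these groups overlapped.

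The 5 genes with the largest log2 falls, H3C3 among them, all had a mean pileup percentile of 31.3 or lower. Other low-ranked genes fell less: H3C10, at 18.3, differed by -0.31, and H2AC8 and H2BC8, at 24.8, by -0.49. How the fall relates to rank over all genes was not tested. H4C11 was covered by 1395, 1440, 1238 and 817 bp with DMSO and 764, 544, 883 and 559 bp with 3MB-PP1, a difference of -0.83 ± 0.24 (log2, SE; limma adjusted p = 0.27). The gene itself was wholly covered in all 8 lists, so the gene alone as window cannot show a difference. H1-5 and H2AC16 share the region from 27864829 to 27867656, where H1-5 was covered by 1865, 1831, 1849 and 1149 bp with DMSO and 1457, 457, 1396 and 495 bp with 3MB-PP1. The low values of H1-5 were those of replicates 2 and 4, and its difference of -0.99 ± 0.43 (log2, SE; limma adjusted p = 0.36) was -0.38 in odd and -1.61 in even numbers. H2AC16 differed by -0.81 (limma adjusted p = 0.36): -0.34 among odd and -1.27 among even numbers, and -0.30 with the gene alone. H3C6 had 1009, 1071, 1206 and 946 bp with DMSO and 1505, 336, 455 and 187 bp with 3MB-PP1, so 1 3MB-PP1 list was the highest of all 8. Its difference was -1.21 ± 0.55 (log2, SE; limma adjusted p = 0.38), and -0.41 in odd against -2.01 in even numbers. It was -1.79 without 3MB-PP1 replicate 1 and -0.78 without 3MB-PP1 replicate 4.

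For some high-ranked genes peaks ran past the edge of the window, which limits the covered length. H1-4 was covered by 1856 to 1877 bp with DMSO and 1875 to 1877 bp with 3MB-PP1, and the whole peaks of the region it shares with H2BC5 were 2538 to 2684 bp and 2459 to 2712 bp long. The whole peaks at H4C8 were 1701, 1624, 1673 and 1428 bp long in DMSO replicates 1 to 4 and 1319, 1356, 1349 and 1458 bp in 3MB-PP1 replicates 1 to 4. Their mean was 1606.5 ± 123 bp (SD, n = 4) in DMSO lists, against 1370.5 ± 60.5 bp (SD, n = 4) in 3MB-PP1 lists, and the groups overlapped. At H2BC11 and H2AC11 whole peaks were 1971 to 2421 bp long with DMSO and 1918 to 1972 bp with 3MB-PP1. The largest rises in mean covered length were in H2BC5, whose gene model spans 26158121 to 26171349, and in H2BC14 and H2AC14, which were outside the test because not every list called them. H2BC5 had 2068, 1934, 2172 and 1984 bp with DMSO and 3051, 1579, 3300 and 1579 bp with 3MB-PP1, both of the high values in odd-numbered lists. H2BC15, also high-ranked at 80.8, was covered by 2035 to 2396 bp in DMSO lists and 1355 to 1949 bp in 3MB-PP1 lists (limma adjusted p = 0.31), without overlap. Its neighbour H2AC15, in the same region, was covered by 2011 to 2496 bp with DMSO and 1689 to 2388 bp with 3MB-PP1, and these overlapped. So did the summed whole peaks of the region, at 2239 to 3149 bp and 2041 to 2388 bp.

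**Figure D5:**
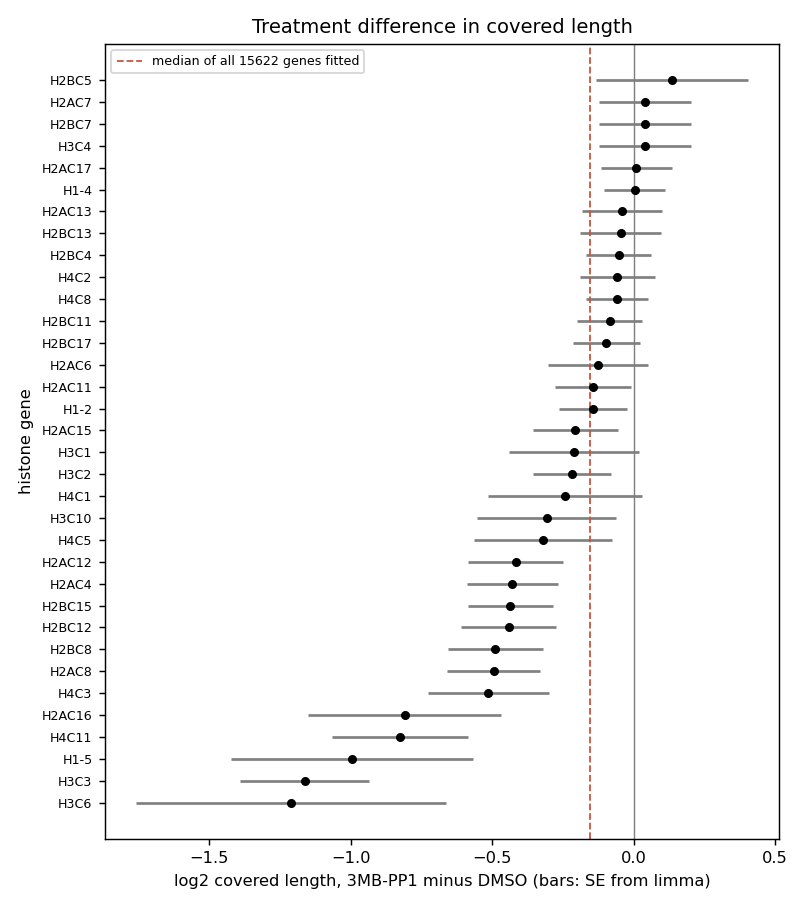
Points give the log2 difference in covered length, 3MB-PP1 minus DMSO (x axis), with its SE from limma, for the 34 histone genes called in all 8 lists, ordered by size. The dashed line is the median of all 15622 genes fitted. The 5 lowest are H3C6, H3C3, H1-5, H4C11 and H2AC16, and none passed adjustment.

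Pileup rank was tested in the same way, with limma on normal scores of the ranks. None of the 34 histone genes passed an adjusted p of 0.05, as against 0% of the 15622 genes lower and 0.0256% (4 genes) higher. At an unadjusted p of 0.05 or less, 4 of the 34 (11.8%) were lower, in 3 regions, against 8.90% of all genes. In simulated data of 15622 genes, made in the same way and with the same limit, this test recovered 27% of falls of 0.5 and 88% of falls of 1. The median difference over the 34 was -0.14, against -0.01 over all genes. This sign depended on the measure: with ranks by fold enrichment over background in place of pileup, the median was 0.14. The 4 genes were H4C2, the pair H2BC13 and H2AC13, and H3C6, chosen for naming after their values were seen. H4C2 stood at 62.0, 66.5, 68.1 and 60.1 in DMSO replicates 1 to 4 and 51.9, 55.3, 55.9 and 41.7 in 3MB-PP1 replicates 1 to 4, without overlap (limma adjusted p = 0.19). Ranked by fold the difference was 0.16 in place of -0.34, and did not pass (limma adjusted p = 0.77). H2BC13 stood at 49.7, 38.4, 40.8 and 40.5 with DMSO and at 33.1, 29.4, 35.5 and 21.4 with 3MB-PP1 (limma adjusted p = 0.22). H3C6 stood at 25.8, 21.5, 22.1 and 5.9 with DMSO and 6.6, 2.9, 7.3 and 11 with 3MB-PP1 (limma adjusted p = 0.25). Groups without overlap were found in 3 of the 34, all lower (8.82%, against 6.34% of all genes), and in none higher (3.76%).

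Other histone genes and their regulators gave a setting for these values. Of 15 replication-dependent histone genes outside chromosome 6, 7 were called in all 8 lists and 3 (H3C14, H3C15 and H4C14) in none. The median percentile of the 7 was 60.1. The limit on sequence shared between copies applies to these genes too. Of 12 replacement histone genes, which are made outside S phase too, such as H2AZ1, H3-3A and CENPA, 11 were called in all 8 lists, with a median percentile of 70.2. Of 17 genes for transcription and 3' end processing of histone mRNA, such as NPAT, HINFP, SLBP and LSM11, 16 were called in all 8. The median percentile of the 16 was 71.0. Over all protein-coding genes 78.2% were called in all 8, with a median percentile of 49.5. Median gene lengths in the lists were 516, 3472 and 44557 bp in this order, against 491 bp for the 54 genes. The part of length in these calls and ranks was not tested. None of the genes of these 3 lists passed the limma test of covered length or of pileup rank in either direction. Their median differences in covered length were -0.16, -0.21 and -0.06 on the log2 scale.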

How the data were processed

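Each of the 8 libraries (4 DMSO, 4 3MB-PP1, grouped and numbered by title) has 1 deposited peak list without a header. MACS2 and hg38 are named in the submitters' processing notes. The aligner, read filters, Tn5 shift, peak settings and control are not given in the sources used here and could affect how many peaks there are and how wide. By column order and values, the deposited lists give position, length in bp, pileup (a signal, or coverage), -log10 p, fold enrichment (a ratio to background) and -log10 q, with a largest q of 0.1. These are the authors' own values and were used only to rank and filter peaks within a list.

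Covered length was the bp of peaks within a gene and 1 kb either side. limma 3.58.1 (R 4.3.3) tested log2 covered length and the normal score of pileup rank over 15622 genes called in all 8 lists, threshold 0.05. The replicate number was tried as a block: deviations of same-numbered libraries in pileup rank correlated in 4 of 4 pairs (0.131 to 0.42), though the labels name no shared day or batch. Python 3.11.15, numpy 2.4.6, pandas 2.3.3 and matplotlib 3.10.9 did the rest, and both limma fits were tested on simulated data. Members, lists and tests were chosen with earlier results of these data known. Genes named were those not called in all lists, the highest and lowest rank per class, the 3 largest falls and rises in covered length and the testis genes, and others named were chosen after their values were seen. Alternatives were a -log10 q of at least 5, equal list lengths, peaks of at least 300 bp, windows of the gene alone and of 2.5 kb, 50% overlap, genes called in at least 4 lists, a pseudocount of 100 bp, centring, ranks by fold, odd and even numbers, and each library left out. The promoter-only window was added after the data were seen. One marker gene of the lists is not reported here.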

Additional observations from a re-analysis of the deposited data

Results flagged for a closer look

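The lists given here stand apart from the other 3 of their group by more than Dixon's 95% critical value, which sets the gap against the group's range. Of 76 groups and measures 9 did, and chance gives about 1 in 20. All were covered lengths of single genes, and neighbouring genes share peaks. DMSO replicate 4 stood apart in H4C5 (974 bp, others 1753 to 1798), H1-5 (1149 bp, others 1831 to 1865), H2BC15 (2035 bp, others 2345 to 2396), H2BC8 (1997 bp, others 1336 to 1389) and, by few bases, H1-4 (1856 bp, others 1877). Without this list the difference with 3MB-PP1 kept its sign for H1-5 (-1.17 on the log2 scale). In the other DMSO lists, H2BC4 was covered by 1803 bp in replicate 2 (others 1742 to 1748) and H2AC11 by 1891 bp in replicate 1 (others 1433 to 1482). With 3MB-PP1, H2BC17 was covered by 1693 bp in replicate 4 (others 1907 to 1936) and H1-4 by 1875 bp in replicate 2 (others 1877).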

How the results depend on the processing

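Under the 21 alternatives for covered length and the 20 for pileup rank, including each library left out, 0 of the histone genes fitted passed the limma threshold. With the replicate number as a block this count was also 0 for both, and the median differences stayed at -0.21 and -0.14. For covered length, same-numbered deviations correlated at 0.0842 to 0.204, so the numbers are not taken to pair the lists there, and 5 of 8 lists correlated best with their own number. The mean difference in histone genes called (3.75) was -6.75 when -log10 q had to reach 5, 1.5 after cutting lists to equal length, -0.25 with peaks of at least 300 bp, 1 with the gene alone, 0 with the promoter alone, 6 in odd and 1.5 in even numbers, and 2.83 to 4.83 leaving out a library. Equal list lengths and stricter thresholds remove weak peaks by construction. The median difference in covered length was below 0 in all 21, from -0.25 to -0.01. It moved most with the gene alone, where 9 of 32 genes were wholly covered (-0.0099), and with centring (-0.0784). Over all genes it was also below 0 throughout. The fall was larger in histone genes in the main fit (-0.21 against -0.16). It was smaller with equal list lengths (-0.21 against -0.23), peaks of at least 300 bp (-0.14 against -0.22) and the gene alone (-0.0099 against -0.13). So it was without DMSO replicate 1 (-0.13 against -0.16) or 3MB-PP1 replicate 3 (-0.192 against -0.199). In the other alternatives it was larger or alike. The median difference in pileup rank was below 0 in 19 of 20 and 0.14 with ranks by fold enrichment, where H4C2 reversed to 0.16; the cause was not tested. Leaving out a library gave -0.25 to -0.13 for length and -0.19 to -0.09 for rank. With a -log10 q of at least 5, 6417 genes were fitted, and 152 of them were lower in covered length (0 in the main fit). In rank, 56 were lower and 129 higher (0 and 4 in the main fit). Only 16 histone genes were fitted at this level. H3C3, H3C6, H1-5, H4C11 and H2AC16 were not among them, so this setting did not test them. Without DMSO replicate 4 the rank calls over all genes were 9 lower and 21 higher. Depth is unknown, so a missing call shows only that no peak passed the list's threshold.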

Other observations

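Between the first and the last of these histone genes lie 20 other protein-coding genes, among them butyrophilin genes, SLC17A transporters, HFE and zinc finger genes. Of these, 16 were called in all 8 lists and 1 in none. The 1 was H4C7, a histone gene that is not among the 54. The median percentile of the 16 in pileup rank was 44.6, with a range from 1.96 to 99.9, and none passed the limma test of covered length or pileup rank. Their median difference in covered length was -0.16 on the log2 scale, and in pileup rank it was -0.0006.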
